A study of Mus musculus with 11 samples.

Results

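The interferon gamma axis was followed in pancreatic tumors through 9 genes. All were chosen for their known roles, with earlier results of these data already seen. They are the cytokine gene Ifng, its receptor chains Ifngr1 and Ifngr2, the transcription factors Irf1 and Irf8, the chemokines Cxcl9 and Cxcl10, and the GTPases Igtp and Irgm1. They were found by symbol among 54232 gene identifiers in the count table, and all 9 were among the 16536 genes that could be tested. Genes of the guanylate-binding protein family and of the MHC were not taken as members.

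Bulk RNA sequencing compared 6 tumors grown in hosts lacking PKN2 (KO, replicates A to F) with 5 grown in wild-type hosts (WT, replicates A to E), to ask what loss of this protein kinase in the stroma does to the tumor. All hosts were female C57BL/6 adults heterozygous for Rosa26 CreERT2, a Cre recombinase that tamoxifen switches on in every cell type. KO hosts were Pkn2 fl/fl, WT hosts were Pkn2 +/+, and both received the same tamoxifen regime. Each mouse was injected in the pancreas with 1000 TB32048 cells, 1 carcinoma line from a female KPC mouse that keeps an intact Pkn2, so that the deletion covered all host cells and not stellate cells alone, and the carcinoma cells were the same in both groups.

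Interferon gamma is secreted mainly by T cells and natural killer (NK) cells. It binds a receptor built of the IFNGR1 and IFNGR2 chains, which engage the kinases JAK1 and JAK2. The signal reaches promoters such as that of Irf1 through the gamma-activated site (GAS), and the interferon regulatory factors then act on related elements, the interferon-stimulated response elements (ISRE). In tumors the axis is known for drawing in T cells through CXCL9 and CXCL10 and for raising antigen presentation, and also for inducing the checkpoint ligand PD-L1.

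Promoters of 4 members are shown because they differ in these elements. Both strands of the RefSeq windows (GRCm38.p6, 250 bases before to 50 after each start) were searched for GAS as TTCNNNGAA and for ISRE as GAAANNGAAA. Windows were found for all 9 members, 11 in all, with 2 each for Irf1 and Irf8. Of 32817 windows in the genome, 8.29% held GAS, 3.43% held ISRE and 11.3% held either. GAS was matched for 4 members (Ifng, Irf1, Irf8 and Igtp), ISRE for 3 (Cxcl10, Igtp and Irgm1), and 6 of 9 members had at least 1 of them. Neither receptor gene nor Cxcl9 held a match. The shares over the genome are per window, whereas members were counted by gene, and the second windows of Irf1 and Irf8 held no match. The 250 bases before the start are given below 5′ to 3′ on the strand of the gene, with the matches in capitals.
Irf1, plus strand, chr11:53769764-53770013, with GAS: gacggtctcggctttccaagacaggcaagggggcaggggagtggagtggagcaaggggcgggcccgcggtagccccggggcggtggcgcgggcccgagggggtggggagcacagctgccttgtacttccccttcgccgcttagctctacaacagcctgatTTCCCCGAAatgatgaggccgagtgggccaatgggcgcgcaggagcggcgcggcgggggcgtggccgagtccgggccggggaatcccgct
Cxcl10, minus strand, chr5:92348890-92349139, with ISRE: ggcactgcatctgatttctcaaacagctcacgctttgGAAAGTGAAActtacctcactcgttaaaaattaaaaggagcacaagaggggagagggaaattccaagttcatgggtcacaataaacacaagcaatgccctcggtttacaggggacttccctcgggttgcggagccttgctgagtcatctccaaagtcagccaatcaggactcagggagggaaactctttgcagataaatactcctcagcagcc
Igtp, plus strand, chr11:58199306-58199555, with both: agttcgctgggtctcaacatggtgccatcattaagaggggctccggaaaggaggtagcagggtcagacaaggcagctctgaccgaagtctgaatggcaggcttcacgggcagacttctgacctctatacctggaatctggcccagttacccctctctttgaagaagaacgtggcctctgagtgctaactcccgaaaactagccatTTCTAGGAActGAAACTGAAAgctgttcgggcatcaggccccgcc
Ifngr1, plus strand, chr10:19591699-19591948, with neither: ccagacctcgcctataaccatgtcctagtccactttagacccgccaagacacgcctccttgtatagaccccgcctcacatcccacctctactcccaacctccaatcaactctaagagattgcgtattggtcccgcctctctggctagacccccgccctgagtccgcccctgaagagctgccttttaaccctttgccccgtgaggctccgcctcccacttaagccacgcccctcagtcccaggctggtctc

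In Irgm1 a pair of overlapping ISRE matches, GAAATAGAAA and GAAACCGAAA, lay just before the start, and in Irf8 there were 2 GAS matches. A match of letters is a description of these windows and does not show that a factor binds there.

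Total counts ranged from 22791627 to 28017673 in KO tumors and from 16294128 to 31121422 in WT tumors. WT tumors A, B and C stood apart from the rest. Ribosomal RNA genes took 1.31%, 6.39% and 1.40% of their counts, against 0.308% to 0.739% in KO tumors, and long genes were relatively low in them. Pkn2 itself was read at 96.6 ± 9.34 counts scaled to a common library total (CPM, SD, n = 6) in KO tumors and 96.7 ± 34.6 CPM (SD, n = 5) in WT tumors, and since the carcinoma cells keep the gene this does not check the genotypes. Values below are CPM with library sizes scaled by TMM, a normalization on the bulk of genes. In such bulk samples, fewer cells of a type and less RNA per cell cannot be told apart.

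None of the 9 genes differed between KO and WT tumors past the test. By the edgeR fit 8 of them had the higher mean level in KO tumors and Ifngr2 the lower, but 0 of 9 passed an adjusted p of 0.05, and the KO and WT values of all 9 overlapped. Over all tested genes, 0.0181% passed that threshold, 3.60% did not overlap, and 48.0% had the higher fitted level in KO tumors. At an unadjusted p under 0.05 there was 1 member, Ifngr1, which was higher in KO tumors, against a background of 24.0% of all genes, made up of 8.57% higher and 15.5% lower in KO tumors.

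**Figure D1:**
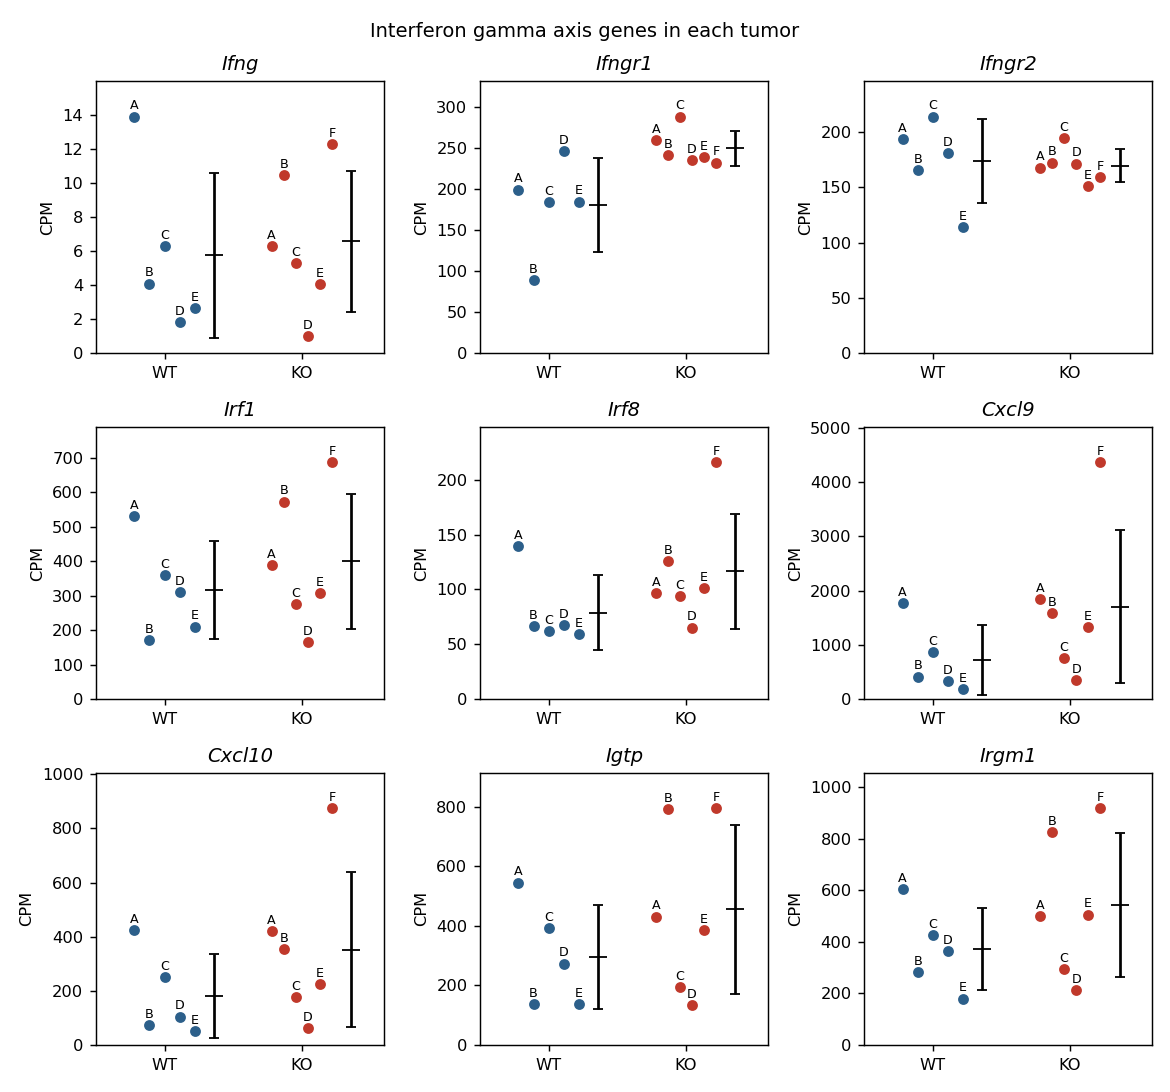
Level of the 9 interferon gamma axis genes in each tumor, in CPM on linear axes that start at 0; blue points are WT tumors, red points KO tumors, letters name the replicate, and black bars give the mean ± SD. Replicates F and B of KO and A of WT sit high for Ifng and most targets, D of KO and E of WT sit low, and the receptor genes span narrower fold ranges than the other members.

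Ifng (ENSMUSG00000055170, GRCm38 chromosome 10, 118441046 to 118445892), the ligand, was the least abundant member. In KO tumors its level ran from 1.02 to 12.3 CPM with a median of 5.80 CPM, and in WT tumors it was 13.9 CPM in A, 4.09 CPM in B, 6.29 CPM in C, 1.84 CPM in D and 2.63 CPM in E. The highest tumor was thus WT and the lowest KO. The log2 fold change of KO over WT was 0.19 ± 0.60 (SE; edgeR, adjusted p = 0.867), and it turned to -0.081 without KO tumor F and to -0.033 without WT tumor D. It was 0.83 without WT tumor A and 1.56 without WT tumors A, B and C (edgeR, adjusted p = 0.338). These levels rest on 25 to 320 counts per tumor. Of the 1295 bases of Ifng exon, 336 are shared on the same strand with the transcript Gm49751, which had 0 to 13 counts.

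Ifngr1 (ENSMUSG00000020009, chromosome 10, 19591949 to 19610229) encodes the chain that binds the ligand. Its level in KO tumors lay between 232 and 288 CPM with a median of 240.5 CPM. In WT tumors it was 199 CPM in A, 89.0 CPM in B, 184 CPM in C, 247 CPM in D and 185 CPM in E. All 6 KO values were above the WT median, while 2 of 6 were above the highest WT tumor. The mean was 249 ± 21.4 CPM in KO (SD, n = 6) and 181 ± 57.3 CPM in WT tumors (SD, n = 5). The log2 fold change was 0.46 ± 0.21 (SE; edgeR, unadjusted p = 0.0492, adjusted p = 0.206). It was 0.29 without WT tumor B, 0.22 when the share of ribosomal RNA entered the fit and 0.21 without WT tumors A, B and C, and among the 11 fits that each left out 1 tumor the unadjusted p stayed under 0.05 only without WT tumor D.

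Ifngr2 (ENSMUSG00000022965, chromosome 16, 91547072 to 91565623) encodes the chain that starts the signal inside the cell. It was the most even member, at 151 to 195 CPM in KO tumors with a median of 169 CPM, and at 193, 166, 214, 181 and 114 CPM in WT tumors A to E. Both the highest and the lowest value belonged to WT tumors. The log2 fold change was -0.03 ± 0.16 (SE; edgeR, adjusted p = 0.918), with a 95% interval from -0.39 to 0.32.

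Irf1 (ENSMUSG00000018899, chromosome 11, 53770014 to 53778374), a primary target of the signal whose promoter is shown above, ranged from 165 to 688 CPM in KO tumors with a median of 349 CPM. In WT tumors it was 532 CPM in A, 171 CPM in B, 361 CPM in C, 310.0 CPM in D and 211 CPM in E. The 3 highest tumors were KO F, KO B and WT A, the same as for Ifng. Its log2 fold change was 0.34 ± 0.37 (SE; edgeR, adjusted p = 0.595). It was 0.11 without KO tumor F, 0.61 without WT tumor A and 0.015 when the share of ribosomal RNA entered the fit.

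Irf8 (ENSMUSG00000041515, chromosome 8, 120736358 to 120756694) is a regulator of macrophage, dendritic cell and B cell development that interferon gamma also induces. It ran from 65.2 to 216 CPM in KO tumors with a median of 99.0 CPM, and was 139 CPM in WT A, 66.4 CPM in WT B, 62.3 CPM in WT C, 67.2 CPM in WT D and 59.2 CPM in WT E. WT tumor A stood far above the other WT tumors, and 5 of 6 KO tumors were above the WT median. The log2 fold change was 0.56 ± 0.31 (SE; edgeR, adjusted p = 0.282). It was 0.29 without KO tumor F, and 0.87 without WT tumor A (edgeR, unadjusted p = 0.00941, adjusted p = 0.165).

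Cxcl9 (ENSMUSG00000029417, chromosome 5, 92321347 to 92328079), a chemokine for T cells that is largely specific to interferon gamma, had the largest estimated difference of the 9 members. Its level in KO tumors ran from 345 to 4368 CPM with a median of 1456 CPM. In WT tumors it was 1771 CPM in A, 416 CPM in B, 871 CPM in C, 331 CPM in D and 185 CPM in E. The log2 fold change was 1.25 ± 0.65 (SE; edgeR, adjusted p = 0.256). Single tumors moved it widely, to 0.71 without KO tumor F and to 1.92 without WT tumor A, and it was 2.73 with WT tumors A, B and C all left out (edgeR, adjusted p = 0.183).

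Cxcl10 (ENSMUSG00000034855, chromosome 5, 92346638 to 92348889) lies beside Cxcl9 and encodes a ligand of the same receptor, CXCR3. Levels of Cxcl10 in KO tumors ranged from 63.3 to 875 CPM with a median of 289 CPM, and WT tumors A to E had 424, 72.8, 251, 105 and 51.1 CPM. KO tumor F and WT tumor A were again the highest. The difference was 0.96 ± 0.65 (SE) on the log2 scale by edgeR (adjusted p = 0.372). It was 0.46 without KO tumor F, 1.56 without WT tumor A and 2.18 with WT tumors A, B and C left out. The receptor gene Cxcr3, which marks activated T cells, differed little, at 10.7 ± 5.44 CPM in KO (SD, n = 6) and 9.56 ± 5.10 CPM in WT tumors (SD, n = 5; edgeR, adjusted p = 0.846).

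Igtp (ENSMUSG00000078853, chromosome 11, 58199556 to 58207591) and Irgm1 (ENSMUSG00000046879, chromosome 11, 48861968 to 48871683) encode immunity-related GTPases, which defend cells against vacuolar pathogens. Igtp ran from 133 to 795 CPM in KO tumors with a median of 407 CPM, and was 545, 138, 391, 273 and 137 CPM in WT tumors A to E. Irgm1 ran from 214 to 919 CPM in KO tumors with a median of 503 CPM, and was 604, 282, 425, 365 and 179 CPM in WT tumors A to E. For both, KO tumors F and B and WT tumor A were the 3 highest. The log2 fold change was 0.62 ± 0.50 (SE) for Igtp (edgeR, adjusted p = 0.457) and 0.55 ± 0.39 (SE) for Irgm1 (edgeR, adjusted p = 0.401). Without KO tumor F they were 0.38 and 0.33, without WT tumor A 0.96 and 0.80, and with the ribosomal RNA share in the fit 0.18 and 0.43. Igtp shares 162 of its 2022 exon bases with its neighbor Irgm2 on the same strand, so reads there cannot be assigned to 1 gene.

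**Figure D2:**
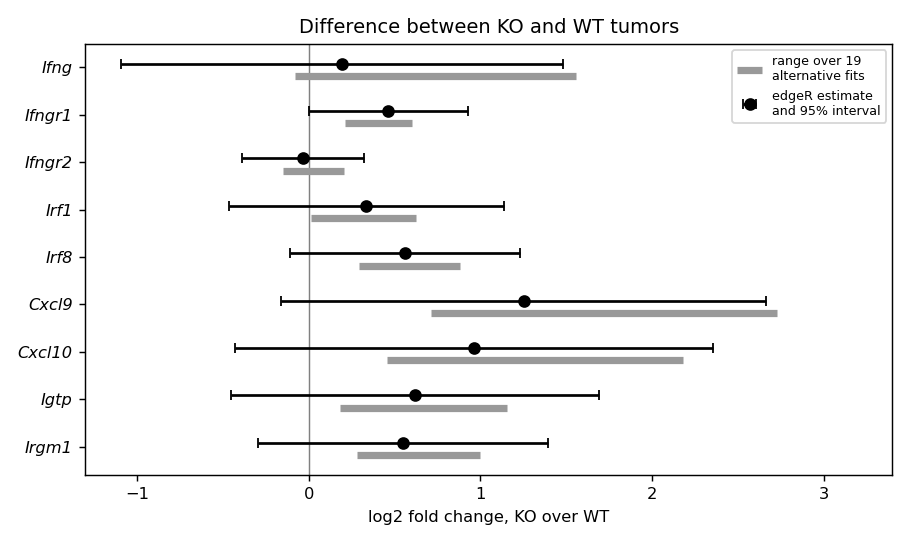
Difference between KO and WT tumors for the 9 genes, as log2 fold change on the x axis; points and thin bars are the edgeR estimate and its 95% interval, and gray bars span the lowest and highest estimate over 19 alternative fits. Every interval except that of Ifngr1 includes 0, and the gray bars of Ifng and Ifngr2 lie on both sides of 0.

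Per kilobase of exon, which allows levels of different genes to be compared, the order of the mean over 11 tumors was Cxcl9 (416 CPM per kb), Igtp (189), Cxcl10 (122), Irf1 (91.1), Irgm1 (80.0), Ifngr1 (76.6), Ifngr2 (45.4), Irf8 (14.1) and Ifng (4.78 CPM per kb). Some neighbors in this order kept it in all 11 tumors, namely Igtp above Cxcl10, Ifngr2 above Irf8 and Irf8 above Ifng. The other neighbors changed places in some tumors. Cxcl9 was above Igtp in 9 of 11, Cxcl10 above Irf1 in 7, Irf1 above Irgm1 in 9, Irgm1 above Ifngr1 in 6 and Ifngr1 above Ifngr2 in 10.

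Tumors of the same genotype were widely spread for most of these genes. Within a genotype the SD of log2(CPM + 1) was 1.27 for Cxcl10, 1.25 for Cxcl9, 0.98 for Igtp and 0.96 for Ifng. It was 0.75 for Irgm1 and 0.70 for Irf1, against a median of 0.37 over all tested genes. The added 1 CPM narrows the spread of genes at low levels, such as Ifng. Cxcl10 was above 98.9% of tested genes in this spread and Irf1 above 90.5%. Irf8, with an SD of 0.54, was above 79.0%. The receptor chains were ordinary, with Ifngr1 above 52.3% and Ifngr2 above 20.3% of genes. Cxcl9 differed 12.7-fold between the highest and lowest KO tumor and 9.56-fold between the highest and lowest WT tumor, whereas Ifngr1 differed 1.24-fold among KO tumors.

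The ligand and the 6 downstream genes rose and fell together from tumor to tumor. KO tumor F and WT tumor A were among the 3 highest tumors for all 7 of these genes, and KO tumor D and WT tumor E were among the 3 lowest for all 7. Of the 36 pairs of members, the 21 pairs without a receptor gene all passed an adjusted p of 0.05 in a two-sided permutation test over 11 tumors, with Pearson's r from 0.79 to 0.98 (adjusted p from 0.00018 to 0.00586) and Spearman's rho from 0.72 to 0.98 (adjusted p from 0.00036 to 0.0278). The 15 pairs with a receptor gene had r from 0.05 to 0.41 and rho from -0.04 to 0.34, and 0 of 15 passed (adjusted p from 0.367 to 0.893 for r). All values of a tumor share a library and its depth and composition, and the genes of a pair share each tumor.

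**Figure D3:**
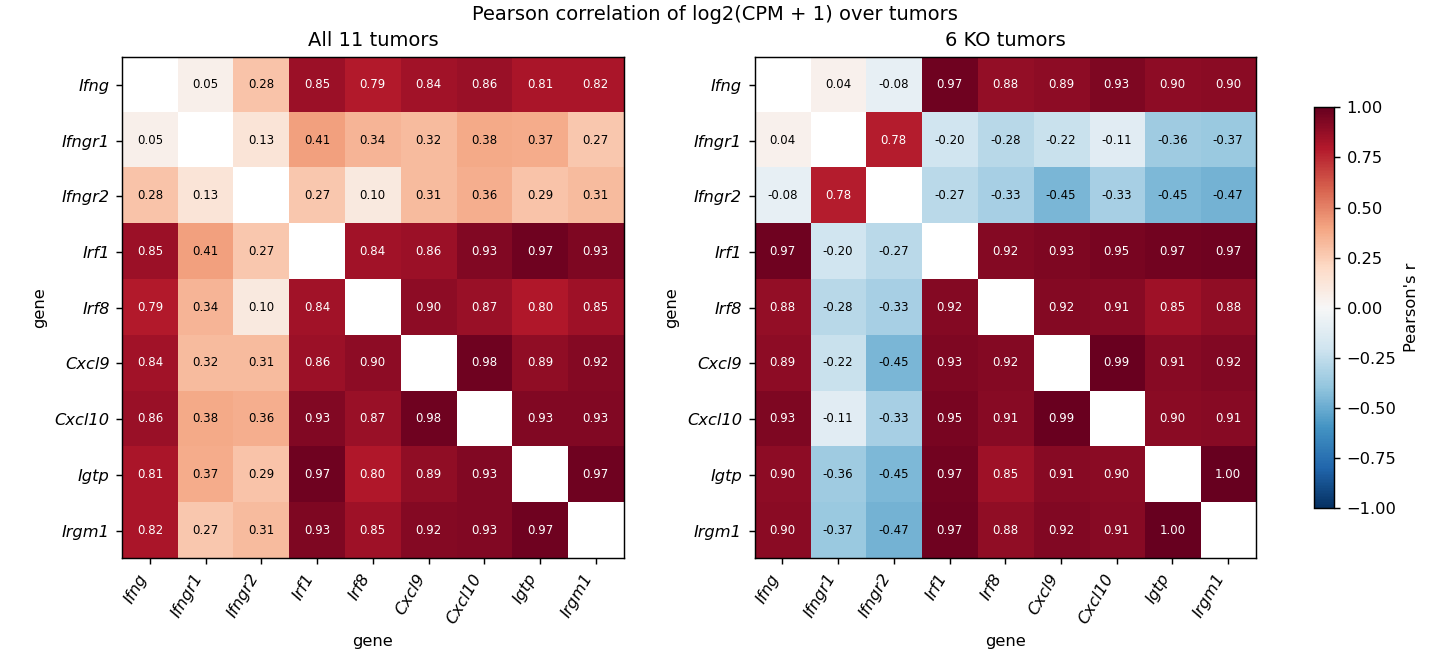
Pearson correlation of log2(CPM + 1) for every pair of the 9 genes, over all 11 tumors on the left and over the 6 KO tumors on the right; red is positive, blue negative, and each square gives r. The 21 pairs without Ifngr1 or Ifngr2 lie between 0.79 and 0.98 on the left and between 0.85 and 1.00 on the right.

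Since WT tumors A, B and C stood apart, the pairs were also taken within the 6 KO tumors, where r of the 21 pairs ran from 0.85 to 1.00. In the exact two-sided permutation test over 6 tumors, 18 of 21 pairs passed by r and 13 by rho, and again 0 of 15 with a receptor. The 5 WT tumors were fewer than the 6 taken as the least for a correlation, and none is given for them. Ifngr2 and Irgm1 had the same order in WT tumors, with E lowest, then B and then D, except that C was above A for Ifngr2 and below it for Irgm1. Cxcl10 and Igtp had the same order in WT tumors as Irgm1, and so the same relation to Ifngr2. These pairs were named after the values were seen, and they carry no test. WT tumor D was the lowest WT tumor for Ifng and the highest for Ifngr1. Whether the receptor genes relate to the targets differently in KO and WT tumors was not tested. With the 2 tumors farthest from the median of the first gene left out, r of the 21 pairs lay between 0.71 and 0.97.

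Ifng and Irf1 gave r of 0.85 and rho of 0.84 (permutation test, adjusted p of 0.00297 and 0.00625), and r was 0.78 without KO tumor D and WT tumor A. Igtp and Irf1 were closer, with r of 0.97 and rho of 0.98, and the neighboring genes Cxcl9 and Cxcl10 had r of 0.98 and rho of 0.95. Ifng against Ifngr1 gave r of 0.05 and rho of -0.04 (permutation test, adjusted p of 0.893 and 0.950). Within KO tumors the receptor chains gave r of 0.78 with each other (exact permutation test, adjusted p = 0.136).

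**Figure D4:**
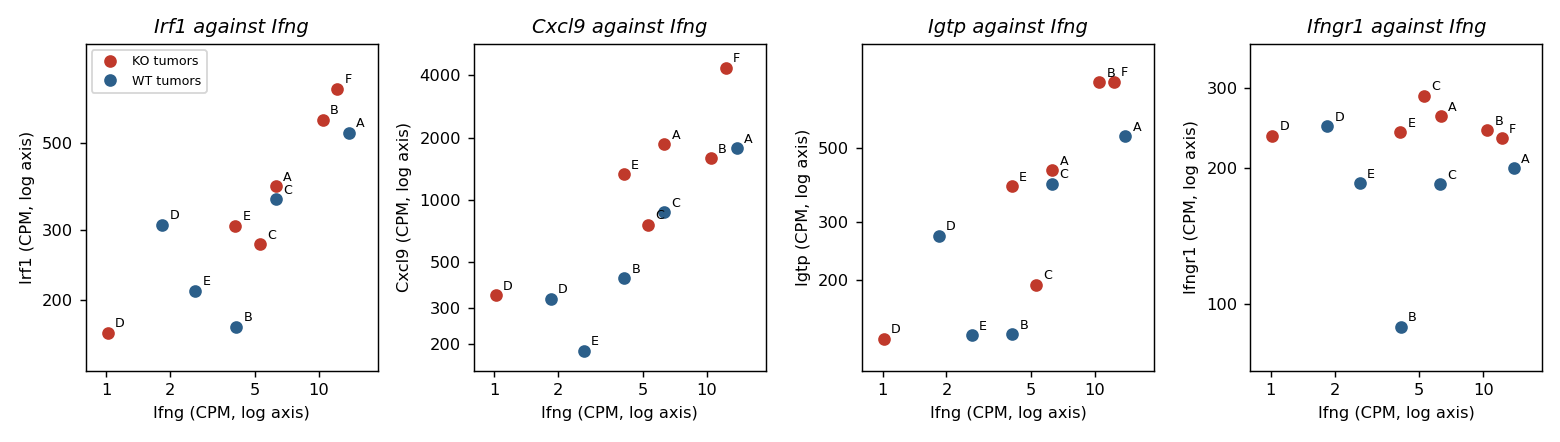
Irf1, Cxcl9, Igtp and Ifngr1 against Ifng in each tumor, all in CPM on logarithmic axes; red points are KO tumors, blue points WT tumors, and letters name the replicate. Irf1, Cxcl9 and Igtp mostly climb with Ifng among KO tumors. Among WT tumors these genes and Ifng are all highest in A and next highest in C. In the lower WT tumors, Irf1 falls from 310 CPM in D to 171 CPM in B, while Ifng rises from 1.84 to 4.09 CPM. Igtp and Cxcl9 are lower in WT tumor E than in D, although Ifng is higher in E. Ifngr1 stays between 232 and 288 CPM in KO tumors while Ifng runs from 1.02 to 12.3 CPM.

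Genes with the pattern most like that of a member, by rho of log2 CPM over the 11 tumors, included other genes that interferons are known to induce. For Irf1 they were the GTPase gene Ifi47 (rho 0.97), Dbnl and Crmp1 (both 0.96). For Igtp they were Ifi47 (0.97), Ifit3 and Samhd1 (both 0.96), the last an antiviral enzyme. For Cxcl9 they were H2-DMb1, which loads peptide on MHC class II, Tceanc2 and Trafd1 (each 0.96). For Irf8 they were Il15ra (0.98), which presents the cytokine IL-15, Ifi205 (0.97) and Ncr1 (0.96), the receptor that marks NK cells. These are the highest of all tested genes outside the 9 members and were chosen for that, so they carry no test. Ncr1 was near the lower limit of the data, at 0.148 to 3.34 CPM.

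The cells that make and read interferon gamma were followed by marker lists. The 16 T cell and NK cell markers summed to 118 to 897 CPM in KO tumors with a median of 440 CPM, and to 361 to 896 CPM in WT tumors with a median of 417 CPM. Their sum was lowest in KO tumor D and highest in KO tumor F and WT tumor A. Of the non-receptor members, KO tumor D was lowest for Ifng, Irf1 and Igtp, and WT tumor E for Irf8, Cxcl9, Cxcl10 and Irgm1. The defining markers Cd3e (6.26 to 39.0 CPM) and Ncr1 were detected in every tumor. By edgeR 0 of the 16 passed in either direction, at an adjusted or an unadjusted p. In a choice made after the values were seen, each member was set against 3 marker sums over the 11 tumors, 27 relations in all. The T and NK sum gave r of 0.86 with Ifng (permutation test, adjusted p = 0.00621), 0.79 with Irf1 and 0.72 with Irf8 (permutation test, adjusted p of 0.0290 and 0.0472), and 0.00 with Ifngr1 (permutation test, adjusted p = 0.991). By r it passed for 6 of 9 members, all but Cxcl9 and the receptor genes. By rho, Ifng gave 0.76, and 0 of the T and NK relations passed (permutation test, adjusted p of 0.0857 or more). Without KO tumors D and F, r with Ifng was 0.76, and within KO tumors it was 0.97 (exact permutation test, adjusted p = 0.113).

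Macrophage markers summed to 3606 to 6365 CPM in KO tumors and 3143 to 6156 CPM in WT tumors, and 4 of 10, Adgre1 among them, had an unadjusted edgeR p under 0.05, all higher in KO tumors, beside 8.57% of all genes. Of the 10, 0 passed the adjusted threshold. Their sum gave r from -0.27 (Ifngr1) to 0.64 (Irf8) with the members and 0.62 with Ifng, and 0 of 9 relations passed (permutation test, adjusted p of 0.0958 or more for r and 0.176 or more for rho). Adgre1 was 98.7 ± 24.7 CPM in KO (SD, n = 6) and 61.6 ± 22.7 CPM in WT tumors (SD, n = 5; edgeR, adjusted p = 0.132). The 8 B cell markers summed to 38.1 to 116 CPM in KO tumors and 6.68 to 37.2 CPM in WT tumors, with no overlap, and 8 of 8 had an unadjusted edgeR p under 0.05, all higher in KO tumors, beside the same 8.57%, while 0 of 8 passed the adjusted threshold. Their sum gave r of 0.66 with Ifngr1 over all tumors (permutation test, adjusted p = 0.0472), rho of 0.62 (permutation test, adjusted p = 0.176) and r of 0.50 within KO tumors (exact permutation test, adjusted p = 0.516). Dendritic cell markers, with Xcr1 at 5.29 to 28.9 CPM, and fibroblast and endothelial markers, with Pdgfra at 18.4 to 74.9 CPM and Pecam1 at 36.9 to 97.3 CPM, overlapped in their sums. The fit put 6 of 9 dendritic, 7 of 7 fibroblast and 4 of 5 endothelial markers higher in KO tumors, beside 48.0% of all genes. Of these markers, 0 had an unadjusted edgeR p under 0.05. The 7 epithelial markers were all lower in KO tumors by the fit, beside 8593 of 16536 tested genes. Epcam was at 10.2 to 42.4 CPM in KO and 3.50 to 287 CPM in WT tumors. Of the 7, 3 had an unadjusted edgeR p under 0.05, beside 15.5% of all genes lower, and 0 passed the adjusted threshold. Their sums overlapped, at 2511 to 5042 CPM in KO and 3083 to 8151 CPM in WT tumors. Acinar markers summed to 7.25 to 629 CPM in KO and 12.8 to 1740 CPM in WT tumors. The part of these cells in the levels of the members was not tested.

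The kinases, factors and brakes between receptor and targets were read from a list of 14 genes, all tested. The fit put 11 higher and 3 lower in KO tumors, beside 48.0% of all genes higher. The median log2 fold change was 0.38 beside -0.03 over all tested genes, and 0 of 14 passed the adjusted threshold. At an unadjusted p under 0.05 there were 4 higher and 1 lower, beside 8.57% and 15.5% of all genes. Ptpn1, a phosphatase that acts on JAK kinases, was 143 ± 18.4 CPM in KO (SD, n = 6) and 105 ± 12.7 CPM in WT tumors (SD, n = 5), a log2 fold change of 0.45 with no overlap between the groups, as for 3.60% of all genes (edgeR, adjusted p = 0.106). Jak1 was 179 ± 19.7 CPM in KO (SD, n = 6) and 118 ± 43.5 CPM in WT tumors (SD, n = 5; log2 fold change 0.60, edgeR adjusted p = 0.133), and Ptpn6 had 0.53 (edgeR, adjusted p = 0.163). In the other direction Ptpn2, a phosphatase that acts on JAK1, had -0.46 (edgeR, adjusted p = 0.191), and Irf9 and Socs3 had -0.08 and -0.10.

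Jak2 had a log2 fold change of 0.34 (edgeR, adjusted p = 0.358). Socs1, the feedback inhibitor that interferon gamma induces, was 87.7 ± 52.0 CPM and 84.7 ± 62.7 CPM in KO and WT tumors, with 0.05 (edgeR, adjusted p = 0.965).

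A list of 34 other targets was tested in full. The fit put 30 higher and 4 lower in KO tumors, against 48.0% of all genes higher, with a median log2 fold change of 0.59, and 0 of 34 passed the adjusted threshold. At an unadjusted p under 0.05 there were 4 higher and 0 lower, which is 4 of 34 beside the 8.57% of all genes. Ciita, the master activator of MHC class II genes, was 127 ± 60.3 CPM in KO (SD, n = 6) and 57.7 ± 27.6 CPM in WT tumors (SD, n = 5), a KO over WT difference of 1.14 ± 0.41 (SE) on the log2 scale (edgeR, adjusted p = 0.129). The Fc receptor gene Fcgr1 had 0.60 and the GTPase gene Tgtp2 1.04 (edgeR, adjusted p of 0.186 and 0.187). Irgm2, which overlaps Igtp, had 0.80 (edgeR, adjusted p = 0.251).

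Cd274, which encodes PD-L1, was 86.0 ± 67.2 CPM in KO (SD, n = 6) and 46.1 ± 22.6 CPM in WT tumors (SD, n = 5), a KO over WT difference of 0.90 ± 0.50 (SE) on the log2 scale (edgeR, adjusted p = 0.289). The lower genes of the list were led by the chemokine gene Ccl5 at -0.36 (edgeR, adjusted p = 0.673), Upp1 at -0.21 and Cxcl16 at -0.08. All 34, like the genes of the other lists, were read in the same 11 tumors and are not separate observations.

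Of 16 genes that drive Ifng production, such as the cytokine genes Il12a, Il12b, Il15 and Il18, their receptors and the factors Tbx21 and Eomes, 15 were tested. The fit put 13 higher and 2 lower in KO tumors, beside 48.0% of all genes higher. Of the 15, 0 passed the adjusted threshold, and the median log2 fold change was 0.37. At an unadjusted p under 0.05 there was 1 of 15, beside 24.0% of all genes, namely Il18, whose product works with the Il12 cytokine on T and NK cells. It was lower in KO tumors, at 8.80 ± 1.16 CPM (SD, n = 6) against 12.7 ± 2.84 CPM (SD, n = 5), a KO over WT difference of -0.52 ± 0.19 (SE) on the log2 scale (edgeR, adjusted p = 0.137). Il15 had -0.19, and the smallest p-values among the higher genes were those of Il12rb1 (0.77), Il15ra (0.40) and Il12rb2 (0.90; edgeR, adjusted p from 0.307 to 0.374). Il12rb1 is also in the list of targets.

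Among 9 genes of the same receptor family, 8 were tested. By the fit 6 were higher and 2 lower in KO tumors, beside 48.0% of all genes higher. Of the 8, 0 passed the adjusted threshold, and the median log2 fold change was 0.17. At an unadjusted p under 0.05 there were 2 higher and 0 lower of 8. Of all genes, 8.57% were higher and 15.5% lower at that p, or 24.0% in either direction. Ifnar1, a chain of the type I interferon receptor, was 129 ± 11.7 CPM in KO (SD, n = 6) and 94.1 ± 21.5 CPM in WT tumors (SD, n = 5), with a log2 fold change of 0.46 (edgeR, adjusted p = 0.124), the size found for Ifngr1. Il10ra had 0.58 (edgeR, adjusted p = 0.155) and Il22ra1 0.54, whereas F3 and Il20rb had -0.36 and -0.21. Whether the ribosomal RNA share of WT tumors plays a part in the values of Ifngr1 and Ifnar1 was not tested beyond the covariate fit given above for Ifngr1.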

How the data were processed

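RNA was sequenced from 11 tumors with a strand-specific kit. The authors deposited raw counts per gene, made per the submitters' processing notes with bcl2fastq 2.19, Trimmomatic, HISAT2 2.1.0 and HTSeq 0.11.2 on mm10. A deposited table of normalized values was not used. Symbols and positions came from GENCODE M21, which named 54165 of 54232 identifiers. Counts were tested with the edgeR 4.0.16 quasi-likelihood F-test (R 4.3.3, TMM, filterByExpr, no covariates), with Benjamini-Hochberg adjustment over 16536 genes at 0.05. Standard errors are the absolute log2 fold change over the square root of F. Correlations and the spread within a genotype used log2(CPM + 1), a pseudocount of 1 CPM. The correlations had 100000 permutations over 11 tumors or all 720 pairings over 6, adjusted within each family. Alternatives were DESeq2 1.42.0, other normalization, filters and covariates, and left-out tumors.

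The members and lists were chosen with earlier results of these data known. Genes named beyond the members are every listed gene past the threshold, the 3 smallest p in each direction, and the fixed genes Jak1, Jak2, Socs1, Ciita, Cd274, Irgm2 and Cxcr3, the 3 genes most like each of 4 members, defining cell markers and Pkn2. Some genes that this rule names are not reported here. Tumors were treated as separate samples. The labels do not state that each came from its own animal, but the authors state that n in their in vivo experiments counts animals. The p-values measure the spread between these samples. No 2 libraries matched within counting error. On library totals before TMM scaling, 3 counts equal 0.0964 to 0.184 CPM, for counting error alone. The CPM values given above use the scaled library sizes, so this range is not on quite the same scale.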

Additional observations from a re-analysis of the deposited data

Results flagged for a closer look

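Of 18 groups examined, 9 genes in each genotype, 2 held a tumor far from the others of its group, and chance gives about 1 in 20. Ifngr1 in WT tumor B was 89.0 CPM, below 184 CPM in the next lowest WT tumor and 247 CPM in the highest. Its gap to the next tumor was 0.711 of the group's range, just past the limit of 0.71. WT tumor B had the fewest counts and the largest ribosomal RNA share, at 6.39%. Irf8 in WT tumor A was 139 CPM, above 67.2 CPM in the next highest WT tumor and 59.2 CPM in the lowest, a gap of 0.852 of the range. The T and NK cell marker sum in WT tumor A was 896 CPM, also the highest of the WT tumors. The part of these measures in either value was not tested.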

How the results depend on the processing

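None of the 9 members passed an adjusted p of 0.05 in any of 19 alternative fits. Of 171 member values, 162 kept their direction and 9 reversed. Without KO tumor F, without WT tumor D and with the replicate letter as a block, Ifng had log2 fold changes of -0.081, -0.033 and -0.056. Ifngr2 turned positive with no filter (0.016), without WT tumor A (0.0083) or C (0.053), with the block (0.0090), without WT tumors A, B and C together (0.21) and with the ribosomal RNA covariate (0.13). Over fits that left out 1 tumor, Ifng ran from -0.081 to 0.83 and Ifngr2 from -0.15 to 0.053. Over the same fits, members at an unadjusted p under 0.05 numbered 0 to 3, and over all genes 0 to 608 were higher and 0 to 1248 lower. The largest counts came without WT tumor E, then without WT tumor D (203 higher and 651 lower) and without KO tumor F (30 and 2), and the cause was not tested. Over all genes, against 3 higher and 0 lower, DESeq2 with its own filter on 29689 genes called 595 and 900, no filter 39 and 6, the length offset 69 and 28, WT tumors A, B and C left out 4 and 3, at least 10 counts in every tumor 0 and 0, and the ribosomal RNA covariate 0 and 0, with 1470 genes at an unadjusted p under 0.05. Members at an unadjusted p under 0.05 were 2 with no filter, with the length offset and without WT tumors A, B and C, and 0 with the ribosomal RNA covariate. The replicate letters do not pair the tumors, with correlations of same-letter deviations from -0.135 to 0.118, and 1 of 10 tumors was closest to its own letter. With the replicate block, 7 genes were higher and 1 lower. The 21 pairs past the threshold stayed 21 by Spearman's rho, added after seeing the data, and 18 by r within KO tumors.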

Other observations

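After the values had been seen, each of the 6 downstream genes was divided by Ifng in the same tumor, and Cxcl9 by Cxcl10, a family of 7 ratios. Such a ratio does not depend on library scaling, but it is not freed of the lower level of long genes in WT tumors A, B and C. Ifng has 1295 bases of exon and Cxcl9 has 3016. With an offset for gene length in the edgeR fit, the log2 fold change was 0.67 for Ifng and 1.39 for Cxcl9, against 0.19 and 1.25 without it. The part of gene length in the ratios was not tested. Cxcl9 over Ifng, in CPM, ran from 143 to 357 in KO tumors with a median of 309.9, and was 128, 102, 139, 180.0 and 70.4 in WT tumors A to E. All 6 KO values lay above the WT median and 4 of 6 above the highest WT value, so the groups overlapped. The mean log2 ratio was higher by 1.09 in KO tumors (exact permutation test over 462 splits, two-sided, p = 0.0216, adjusted p = 0.152), which did not pass after adjustment. Cxcl10 over Ifng was higher by 0.78 (exact permutation test, p = 0.0693, adjusted p = 0.202). For Irf1, Irf8, Igtp and Irgm1 over Ifng the difference was 0.10, 0.34, 0.35 and 0.28 (exact permutation test, adjusted p from 0.626 to 0.797). Cxcl9 over Cxcl10 was higher by 0.31 (exact permutation test, adjusted p = 0.202). The smallest p that these splits allow is 0.00216.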
